A study of Mus musculus with 2 samples.

Results

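Skeletal muscle cells were a small set of barcodes in mouse skin profiled by droplet single-cell RNA sequencing on the 10x Genomics Chromium, which tags each captured transcript with a unique molecular identifier (UMI). They were chosen in the PBS-labelled library by measured levels: no fewer than 500 genes and 1000 UMIs, with 10% of UMIs or less from mt- genes (those of the mitochondrial genome). In addition Acta1, Ckm, Tnnt3, Tnnc2 and Mylpf together had to reach 0.5% of UMIs with at least 3 of the 5 genes detected. Col1a1, Col1a2 and Col3a1 had to stay under 0.3%. The rule found 63 barcodes of 5932 retained by the depth and mt- limits (1.06%, exact Clopper-Pearson 95% interval 0.817 to 1.36), of 10456 in that library and of 32541 in the series. The mt- limit alone removed a further 20.

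By their labels both libraries came from skin of 8-week-old C57Bl6 mice of both sexes, with no transgene named. One library carries the label PBS, the vehicle given intradermally in 100 µl, and the other the label Sitagliptine, 100 ng of the DPP4 inhibitor sitagliptin in the same volume. The labels give a time of 48 h without saying clearly from which event, and do not say how many mice were pooled. With 1 library per treatment no difference between treatments has a replicate, so no test was made. The intervals printed cover counting error only, and UMIs are treated as independent molecules. The file names of both libraries carry the first letter of the treatment that their label does not give, so libraries are called by their labels throughout. The PBS-labelled library held 70729930 UMIs (median 4206 per barcode, 6903 per retained barcode), and the sitagliptin-labelled one 95047000 (median 2108 and 2197). In all, 39.9% and 16.8% of their barcodes lay over the mt- limit. The libraries shared 75 barcodes, of which 1 was a muscle barcode. No doublet caller was run, and barcodes that hold RNA of several cell types are described by their marker shares.

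Skeletal muscle lies under the dermis of mouse skin as a thin sheet, the panniculus carnosus. Its fibres are long cells with many nuclei, filled with sarcomeres in which myosin thick filaments pull on actin thin filaments when calcium binds troponin. Fibre types are told apart by the myosin heavy chain they make: Myh7 in slow fibres, and Myh2, Myh1 and Myh4 in fast fibres of types 2A, 2X and 2B. Fibres of the first fast type rely more on oxidative metabolism, those of the last more on glycolysis. A whole fibre is far longer than the cells that droplet devices usually take up, so a barcode here is not assumed to be a whole fibre.

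The fast myosin heavy chain genes lie side by side on the plus strand of chromosome 11 (mm10, GENCODE annotation): Myh2 at chr11:67171027-67197517, Myh1 at chr11:67200052-67224575 and Myh4 at chr11:67238029-67260446. Acta1, which encodes the actin of skeletal muscle thin filaments, lies on the minus strand at chr8:123891769-123894751. The 250 bases before the RefSeq start of these 4 genes (GRCm38.p6), for Myh1 the 200 of them that precede its GENCODE start, are shown because the results turn on which of the 3 myosin genes a barcode holds and on Acta1 as the most abundant gene of the rule. Capitals mark E-boxes (CANNTG, the motif bound by MyoD family proteins), MEF2 boxes and CArG boxes, each searched on both strands, and no marked motifs overlap.
Myh2 chr11:67170777-67171026 plus strand: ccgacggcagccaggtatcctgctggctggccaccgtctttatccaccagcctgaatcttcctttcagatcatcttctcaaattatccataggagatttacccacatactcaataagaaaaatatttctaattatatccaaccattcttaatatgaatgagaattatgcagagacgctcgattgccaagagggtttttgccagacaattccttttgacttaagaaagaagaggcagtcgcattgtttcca
Myh1 chr11:67199852-67200051 plus strand: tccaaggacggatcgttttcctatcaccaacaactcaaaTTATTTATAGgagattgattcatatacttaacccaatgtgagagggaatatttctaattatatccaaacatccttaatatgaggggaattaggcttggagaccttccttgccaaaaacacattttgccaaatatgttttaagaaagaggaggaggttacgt
Myh4 chr11:67237562-67237811 plus strand: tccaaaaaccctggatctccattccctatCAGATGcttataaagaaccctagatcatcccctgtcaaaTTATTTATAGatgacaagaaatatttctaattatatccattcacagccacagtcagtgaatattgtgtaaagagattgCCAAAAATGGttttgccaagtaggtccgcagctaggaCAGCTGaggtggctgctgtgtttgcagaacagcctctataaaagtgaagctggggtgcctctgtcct
Acta1 chr8:123894776-123895025 minus strand: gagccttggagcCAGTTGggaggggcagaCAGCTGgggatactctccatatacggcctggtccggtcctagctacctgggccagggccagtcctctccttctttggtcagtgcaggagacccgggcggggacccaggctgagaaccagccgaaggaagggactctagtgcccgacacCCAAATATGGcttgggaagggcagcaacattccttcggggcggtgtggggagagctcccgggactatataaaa

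The Myh4 window held 2 E-boxes, 1 MEF2 box and 1 CArG box. The Myh1 window held 1 MEF2 box with the same 10 letters as that of Myh4. The Myh2 window held none of the 3 motifs. The Acta1 window held 2 E-boxes and 1 CArG box. Over 32851 RefSeq windows of 250 bases, 66.2% held an E-box, 31.8% at least 2 of them, 2.92% a MEF2 box and 1.47% a CArG box. A match is a description of the letters and not evidence of binding.

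The 5 genes that chose the 63 barcodes took widely different shares of their UMIs, given here as a description. They made up between 0.534% and 19.5% of UMIs, with a median of 12.5%. In 61 barcodes all 5 were detected, and in 2 barcodes 4 of 5. A gap divided the shares: 9 barcodes lay between 0.534% and 1.60%, and the other 54 at 4.30% or more, 50 of them at 8.16% or more. Just inside the threshold stood shares of 0.534% and 0.599%, and just outside 0.455%, 0.451% and 0.444%. The highest mt- share inside was 9.90% and the lowest outside 11.1%. The collagen limit removed 2 barcodes, at 0.355% and 4.12%, while the highest collagen share inside was 0.0977%.

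Markers of another cell class reached 2% of UMIs in 12 of the 63 muscle barcodes. The 12 keratinocyte markers, among them Krt5 and Krt14 of the basal epidermis, reached 2% of UMIs in 5 of the 9 low-share barcodes, and the 11 macrophage and monocyte markers in 1 more (5.11%). In 8 of these 9 barcodes another class took a larger share than the 5 muscle genes, so the markers do not single these out as muscle. Among the other 54 barcodes 6 held keratinocyte markers at 2.51% to 3.48%. These included the deepest muscle barcode, with 36118 UMIs or 13.5% of all muscle UMIs, a muscle share of 4.57% and a keratinocyte share of 3.48%. The 9 low-share barcodes held 71297 of the 267965 muscle UMIs (26.6%). That left 48 barcodes with at least 2% muscle RNA and no other class at 2%, here called core barcodes, with 145778 UMIs (1026 to 9661 per barcode, median 2339.5). In the core the 5 muscle genes made up 4.89% to 19.5% (median 13.4%).

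Even in the core, keratinocyte markers stood at 0.0932% to 1.95% of UMIs (median 0.726%). The median was 0.295% in barcodes chosen as macrophages and 4.46% over all other retained barcodes. Krt14 was detected in 39 and Lgals7 in 47 of the 48 core barcodes. Their keratinocyte share ran against depth (Spearman rho = -0.71 over 48 barcodes of 1 library, a description). The origin of this RNA was not tested. Of the 11 fibroblast markers 3 were at 0 in all muscle barcodes, of the 10 endothelial markers 7, of the 5 mast cell markers all, and of the 11 smooth muscle and pericyte markers 6, Tagln, Cnn1 and Rgs5 among them. Desmin is on that last list too and is also a muscle fibre protein.

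**Figure D1:**
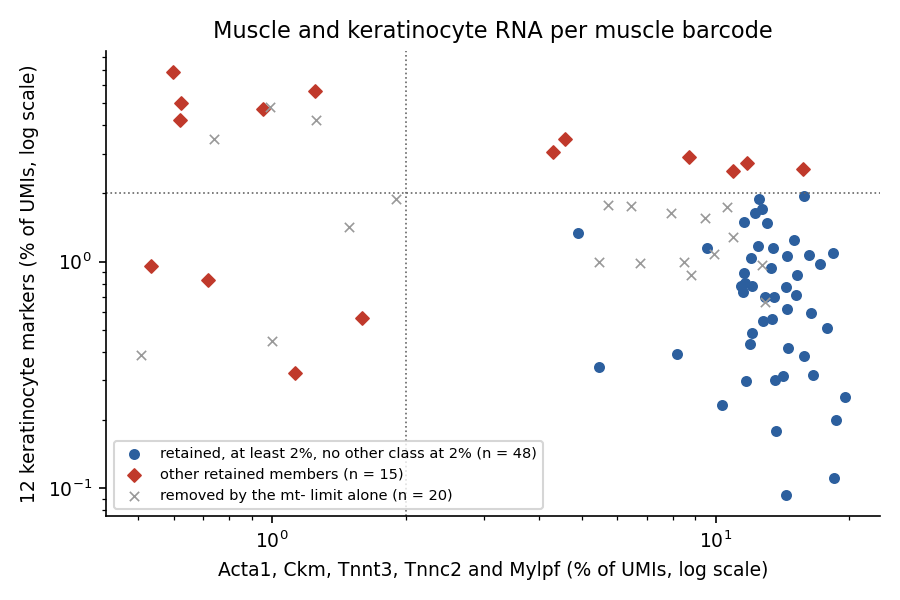
Share of UMIs from the 5 muscle genes that chose the barcodes (x axis, %) and from 12 keratinocyte markers (y axis, %), both on log scales, for 63 retained barcodes and the 20 that the mt- limit alone removed. Dotted lines mark 2%. The 48 core barcodes form 1 group at 4.89% to 19.5% muscle RNA, and most low-share barcodes lie above 2% keratinocyte RNA.

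No muscle barcode was found in the sitagliptin-labelled library by the same rule, nor by the rule without its mt- or collagen limit. With 0 of 18380 retained barcodes, a count of 0 set to 3 counts allows a share of up to 0.0163%. The exact Clopper-Pearson limit was 0.0201%. The share of 1.06% in the PBS-labelled library was 65.1-fold the first limit. This fold leaves out the counting error of the 63 barcodes (0.817% to 1.36%) and is not a lower bound. Other cell classes differed between the libraries too: by their markers the PBS-labelled library held 4112 keratinocyte, 630 macrophage and 430 fibroblast barcodes, and the sitagliptin-labelled one 18109, 12 and 7. The highest share of the 5 genes in any barcode of the sitagliptin-labelled library was 0.247%. Muscle RNA was also scarcer outside muscle cells there: the 5 genes summed to 56.3 counts per 1000000 UMIs (CPM; exact Poisson 95% interval 54.4 to 58.3) in the other retained barcodes of the PBS-labelled library and to 7.64 (7.07 to 8.25) in the sitagliptin-labelled one. Within keratinocyte barcodes alone the levels were 50.9 and 7.66 CPM. These rules and levels describe 2 libraries, and treatment and library cannot be told apart.

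Among the 3 fast myosin heavy chain genes Myh4 gave the most UMIs, and the slow gene Myh7 gave none. Over the 63 barcodes Myh4 had 344 of 693 UMIs (49.6%, 45.9 to 53.4), Myh1 246 (35.5%, 31.9 to 39.2) and Myh2 103 (14.9%, 12.3 to 17.7). Of the Myh2 UMIs 31 came from the deepest barcode, which also held keratinocyte markers. The Myh2 share was 8.64% thinned to 1000 UMIs per barcode and 10.5% as a mean over barcodes. Myh7 had 0, which allows a share of up to 0.433%. UMIs count tagged transcript ends, 1 per molecule whatever its length, and are not divided by length. The myosin ends are alike: 20.9% to 33.3% of the 31-base words in the last 300 bases of Myh1, Myh2 and Myh4 transcripts also occur in another gene, so counting could split or drop some reads of these genes. The embryonic gene Myh3 was at 0 and the perinatal gene Myh8 had 1 UMI.

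Single barcodes held these myosins in a few combinations. Myh4 was detected in 37 barcodes, Myh1 in 38 and Myh2 in 11. Myh2 and Myh4 occurred together in 0 of the 63 barcodes, and also in 0 of the 20 removed by the mt- limit, where 3 held Myh2 and 14 Myh4. Myh1 was shared with both neighbours: 17 barcodes held Myh1 and Myh4, 9 held Myh1 and Myh2, and 12 held Myh1 alone. Myh4 alone was found in 20 barcodes, Myh2 alone in 2, and none of the 3 in 3. The counts are low, at 1 to 46 UMIs of Myh4 (median 5), 1 to 30 of Myh1 (median 4) and 1 to 31 of Myh2 (median 7) where detected, so a barcode without a UMI may still have held the transcript. Of the 12 barcodes with at least 10 Myh4 UMIs 6 also held Myh1, at 8 UMIs or fewer, and 1 barcode removed by the mt- limit held 19 UMIs of Myh1 and 12 of Myh4.

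**Figure D2:**
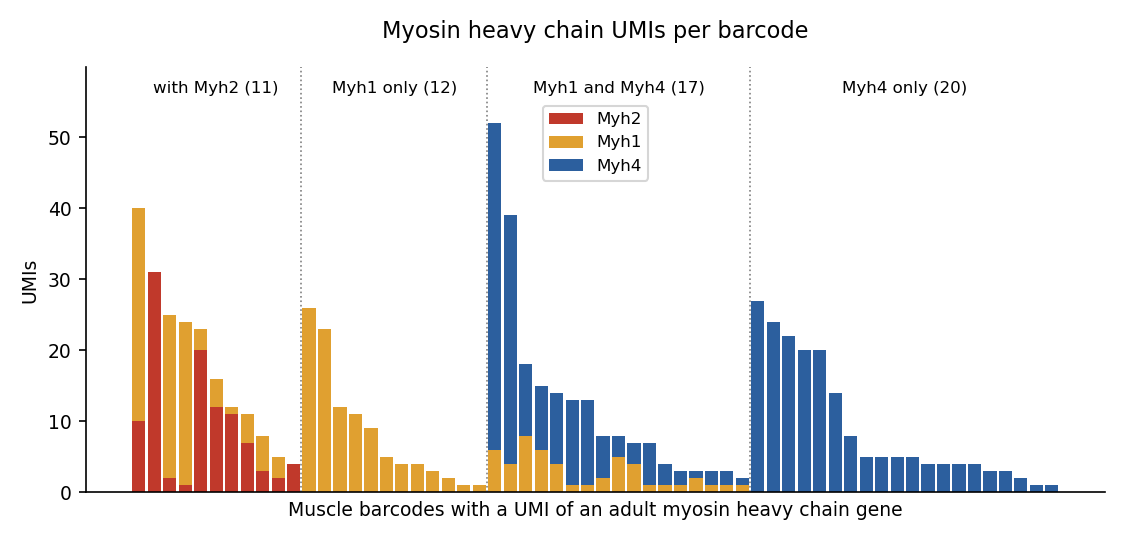
UMIs of Myh2, Myh1 and Myh4 (stacked, y axis) in each of the 60 muscle barcodes with at least 1 such UMI (x axis), grouped by combination and ordered by total within each. Red (Myh2) and blue (Myh4) never share a bar, while Myh1 occurs with either.

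Of the 16 genes on the slow list 9 were detected and 7 were at 0: Myh7, the slow light chains Myl2 and Myl3, the slow troponins Tnnc1 and Tnni1, the calcium pump inhibitor Pln and the cardiac and slow calsequestrin Casq2. Tnnt1, the slow troponin T, had 2 UMIs in 1 barcode. The genes of that list found in many barcodes were Mb, the oxygen store myoglobin (48 barcodes), the stretch-linked LIM protein Csrp3 (44), the fatty acid carrier Fabp3 (41), the calcineurin-binding Z-disc protein Myoz2 (21) and the calcium pump inhibitor Sln (19). All 18 genes of the fast list were detected. Tnni2, fast troponin I, was found in 63 barcodes, Myl1, the fast essential light chain, in 62, and Atp2a1, the fast calcium pump, in 61.

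Within the core, the 10 barcodes with Myh2 and the 27 with Myh4 differed in further genes of fibre type. The split was chosen after the values were seen and is a description. It rests on detection and not on the main myosin of a barcode. The Myh2 barcodes held 96 Myh1 UMIs in all and the Myh4 barcodes 44. Some Myh2 barcodes held more Myh1 than Myh2 (23 UMIs against 1, 23 against 2, 30 against 10), others less (3 against 20, 1 against 11). UMIs were summed to 35621 and 76091 and compared as CPM, and a gene counts as higher or lower at 2-fold or more, with at least 50 CPM on 1 side and 20 UMIs in all. Of 689 genes compared 51 (7.4%) were higher with Myh2 and 58 (8.42%) lower. The exact interval of the ratio left out 1 for 37 and 34 of them. These counts include Myh2 and Myh4 themselves, the genes that chose the groups. In a barcode of the median core depth 1 UMI equals 427 CPM, so per-barcode levels are coarse.

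Several genes known from slow or oxidative fibres were higher with Myh2. Myoz2 ranged over 1003 to 3350 CPM in the 10 Myh2 barcodes (median 1717) and over 0 to 691 in the 27 Myh4 barcodes, 24 of which had none. These ranges do not overlap, and the summed ratio was 54.1-fold (17.8 to 268). Myoglobin (Mb) had medians of 3089 and 915 CPM, with ranges of 0 to 5346 and 0 to 3755 that overlap (3.49-fold, 2.60 to 4.70). Fabp3 had medians of 1801 and 518 CPM (3.11-fold, 2.11 to 4.63), with overlap. Sln was detected in 7 of 10 and 5 of 27 barcodes, up to 4131 and 529 CPM (23.1-fold, 9.30 to 73.9). One Myh2 barcode held 37 of the 54 Sln UMIs of its group, and without it the ratio was 9.70-fold (3.44 to 33.6). Also higher were Actn2, the alpha-actinin that cross-links actin at the Z-disc (3.77-fold, 2.44 to 5.92), Coq8a of coenzyme Q synthesis (5.24-fold, 2.52 to 11.7) and Ldhb, the lactate dehydrogenase subunit common in oxidative tissue (5.22-fold, 2.31 to 12.9). Myh1 itself was 4.66-fold higher (3.23 to 6.82).

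Several genes known from fast fibres were lower with Myh2. Actn3, the alpha-actinin of fast fibres, had 5 UMIs in 2 of the 10 Myh2 barcodes and 185 UMIs in 26 of the 27 Myh4 barcodes (17.3-fold lower, 7.29 to 54.0). Mybpc2, fast myosin-binding protein C, had 0 UMIs against 66 in 18 barcodes. It was 10.3-fold lower with the 0 set to 3 counts over the group, which leaves out the counting error of the 66. Parvalbumin (Pvalb), the calcium buffer of fast fibres, was found in all 27 Myh4 barcodes at 781 to 8644 CPM (median 3129). It stood at 0 to 5346 CPM (median 340) in the Myh2 barcodes, 1 of which exceeded the Myh4 median (4.59-fold lower in sum, 3.17 to 6.88). Mylk2, the kinase of the skeletal regulatory light chain, was 7.26-fold lower (1.85 to 62.6) and Pdlim3, a Z-disc adaptor, 4.18-fold lower (2.49 to 7.52), or 2.71-fold (1.57 to 4.97) without the 1 Myh4 barcode that held 62 of its 143 UMIs there. The widest intervals belong to genes with 1 or 2 UMIs on 1 side, such as S100a10 (1 against 21) and Cib2 (2 against 33).

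The lists differed in direction. Of 16 fast-list genes compared 0 were higher and 4 lower with Myh2 (Actn3, Mybpc2, Mylk2 and Pvalb). The median log2 ratio over all 18 genes of the list was -0.38. List medians here include genes too low to be compared, and undetected genes enter as 0. The median of 0.09 over all genes covers only those compared, so it is an unlike measure. Of 5 slow-list genes compared 4 were higher (Myoz2, Sln, Mb and Fabp3), with a list median of 0. Over all 689 genes compared 7.4% were higher and 8.42% lower. Myoz2 (76 UMIs against 3) and Sln (54 against 5) reached 20 UMIs only through the Myh2 barcodes, where they are high. Actn3, Mybpc2 and Mylk2 did so only through the Myh4 barcodes. The list counts are thus a description. Of 13 oxidative genes compared 4 were higher and 0 lower, with a list median of 0.50. The lists overlap: Mb and Fabp3 count as higher on both the slow and the oxidative list. Of 10 calcium-handling genes 1 was higher and 2 lower (-0.21), and of 15 genes of creatine kinase, glycogen and glycolysis 1 was higher and 0 lower (median 0). Of 19 Z-disc and cytoskeleton genes 3 were higher and 2 lower, and of 13 thick filament genes 4 and 4. The thick filament counts include Myh2 (higher) and Myh4 (lower), whose direction was fixed by the choice of groups. Some abundant sarcomere genes lay within 2-fold: Acta1 at 64344 CPM with Myh2 and 54054 with Myh4, Tnni2 at 13812 and 16020, Atp2a1 at 4239 and 4376. Ttn, the giant spring protein titin, stood at 5755 and 1958 CPM, but in 1 Myh2 barcode it reached 23877 CPM and the group medians were 2365 and 1768.

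The 11 core barcodes with Myh1 alone had medians between the other groups for most of these genes. Myoz2 had a median of 269 CPM there, against 1717 with Myh2 and 0 with Myh4. For Mb the median was 1949 CPM, for Fabp3 1060, for Actn3 530, for Mybpc2 195 and for Pvalb 817. Each of these 6 medians lies between those of the Myh2 and Myh4 barcodes, although the ranges overlap on both sides.

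**Figure D3:**
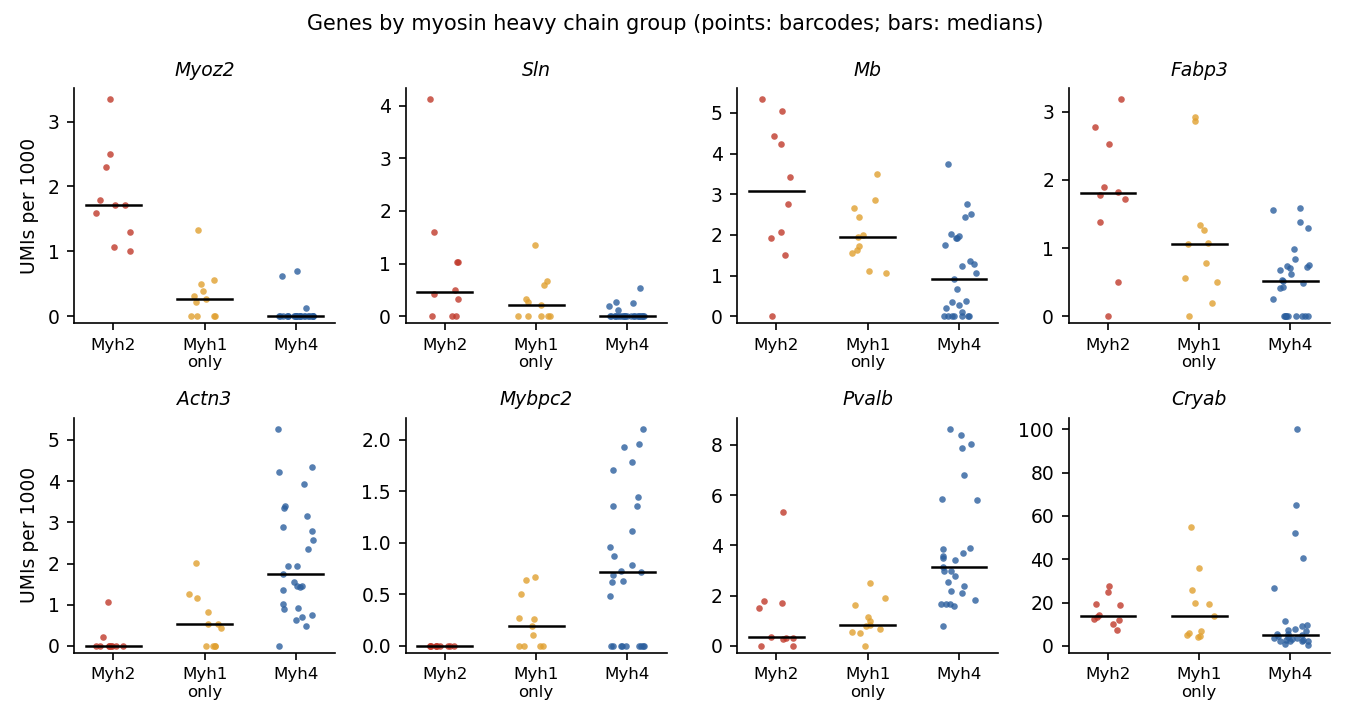
UMIs per 1000 UMIs (y axes, linear, 1 per gene) of 8 genes in the core barcodes with Myh2 (n = 10), with Myh1 alone (n = 11) and with Myh4 (n = 27); points are barcodes and bars medians. Myoz2, Sln, Mb and Fabp3 have their highest medians with Myh2 and Actn3, Mybpc2 and Pvalb with Myh4, and Cryab is spread most widely with Myh4.

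Cryab had the most summed UMIs of the genes outside the rule, with mt-, ribosomal protein, haemoglobin and predicted genes left out of the ranking. One barcode gave a large part of the Cryab UMIs. Its product, alpha-B-crystallin, is a small heat shock protein that guards desmin and the Z-disc. It ran from 427 to 100300 CPM over the 48 core barcodes (median 7579), while Tnni2 ran from 5117 to 29491 and Acta1 from 18225 to 86383. One barcode of 9661 UMIs held 969 of Cryab, 29.0% of all Cryab UMIs in muscle barcodes. Csrp3, the muscle LIM protein, varied with it: rho was 0.89 over the 48 barcodes (Cryab share and Csrp3 share of UMIs, 1 library, a description). For Cryab with Ankrd2, a stretch-induced ankyrin repeat protein, rho was 0.76, and for Cryab with Acta1 it was 0.09. The 10 core barcodes without a Csrp3 UMI had Cryab at 0.0427% to 0.563% of UMIs, and the other 38 at 0.258% to 10.0%. Depth was alike, with medians of 2196 and 2389 UMIs.

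All 10 barcodes without Csrp3 held Myh4. Csrp3 was found in all 10 Myh2 barcodes, all 11 with Myh1 alone and 17 of 27 with Myh4. Cryab reached 1% of UMIs in 8 of 10, 6 of 11 and 6 of 27 of them. The summed levels of Cryab do not show this: 15889.5 CPM with Myh2 and 24549.6 with Myh4, but 13533 with Myh4 once the 1 richest barcode is left out, which turns the direction. Csrp3 likewise stood at 5839 CPM with Myh2 and at 7044 with Myh4, or 3718 without that barcode. The medians were 13840 and 4834 CPM for Cryab and 5467 and 1290 for Csrp3.

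**Figure D4:**
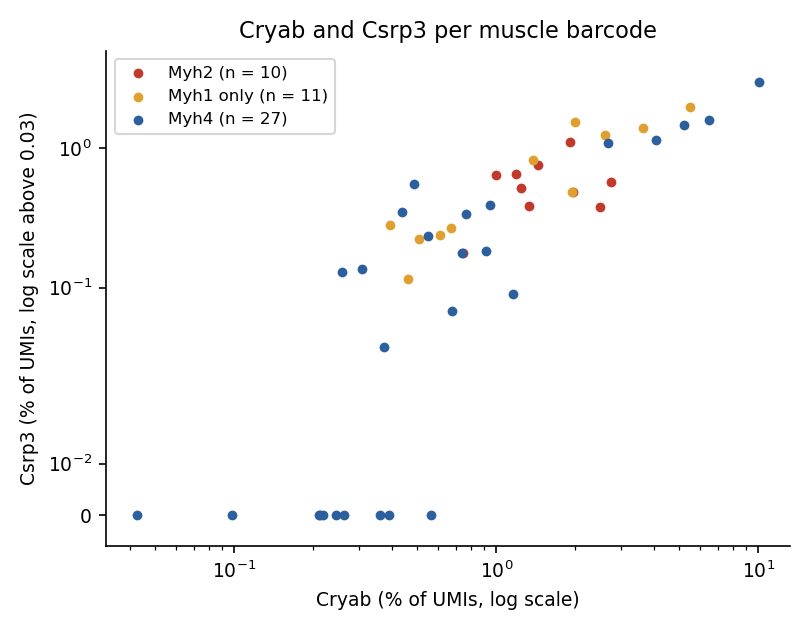
Cryab (x axis, % of UMIs, log scale) and Csrp3 (y axis, % of UMIs, log scale above 0.03) in the 48 core barcodes, coloured by myosin group. Barcodes rich in Cryab are rich in Csrp3, and the 10 barcodes at 0 Csrp3 all hold Myh4.

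Set against all other retained barcodes of the same library, muscle barcodes carried the muscle form of many enzymes. This contrast includes the genes of the rule, so it is a description. Of 3676 genes compared 584 (15.9%) were at least 2-fold higher in muscle and 1116 (30.4%) at least 2-fold lower. Most sarcomere genes entered this comparison only through their level in muscle, so list counts are not given. Summed over whole lists, the 26 Z-disc and cytoskeleton genes stood at 32814 CPM in muscle and 156 in the others, the 17 thick filament genes at 27880.5 and 30.8, and the 21 calcium-handling genes at 6758 and 200.1.

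For several proteins with a muscle form and a common form, the muscle form was higher and the common form lower than in other cells. The median log2 ratio over all genes compared was -0.557, so common forms about 2-fold lower lie near the general shift. Not every common form was lower: Cox7a2, Ckb and Pfkl, on the same lists, did not count as 2-fold lower. Cox6a2, the heart and muscle form of a cytochrome oxidase subunit, stood at 1619.6 CPM (1471 to 1779) in muscle and 1.14 in the others, while Cox6a1 was 2.36-fold lower in muscle (127 against 300 CPM). Pgam2 was 1428-fold higher (1134 to 1818) and Pgam1 4.19-fold lower. Eno3, the muscle enolase, was 723-fold higher (614 to 856) and Eno1 3.62-fold lower. Slc25a4, the muscle adenine nucleotide carrier, was 41.9-fold higher (39.3 to 44.6) and Slc25a5 2.10-fold lower. Atp2a1 was 897-fold higher (761 to 1062) and Atp2a2 2.28-fold lower. Cox8b was 1432-fold higher, whereas Cox8a was 1.53-fold lower and did not reach 2-fold. In the core the common forms were rarer still, with Eno1 at 20.6 CPM, Pgam1 at 27.4 and Atp2a2 at 6.86. The Eno1, Slc25a5 and Cox6a1 values are uncertain, since 87.7%, 27.8% and 19.6% of the 31-base words at their transcript ends occur in other genes. The same holds for Ldhb (28.1%) and Myl1 (32.2%), named in other paragraphs. These words come from the last 300 bases, and which transcript end was read is not known. Gapdh and Aldoa also ranked among the 15 most abundant genes outside the rule, in the same ranking as Cryab. With 81.5% and 41.1% of such words shared their counts are uncertain too.

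The 15 genes with the highest ratio to other barcodes were Xirp1, Ckmt2, Mybph, Ankrd2, Csrp3, Ppp1r3a, Smtnl1, Myoz2, Myom2, Trim54, Myh2, Smyd1, Fabp3, Art1 and Myl1. Genes of the rule and mt-, ribosomal protein, haemoglobin and predicted genes were left out of this ranking. Csrp3 stood at 4045 CPM in muscle and 1.39 in the others (2913-fold, 2317 to 3709). Xirp1, an actin-binding repair protein, led with 22 UMIs against 1, and its interval is correspondingly wide (755 to 192769). The non-coding RNA H19, abundant in fetal muscle, had 323 UMIs in 53 of the 63 barcodes (1205 CPM against 3.88, 310-fold).

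RNA that stays in the nucleus was scarce in the core. Malat1, a nuclear non-coding RNA that is usually among the most abundant, made up 0.0572% of UMIs at the median in the core (range 0 to 2.06%), 1.62% in the other retained barcodes and 1.90% in the 9 low-share muscle barcodes. The 2 core barcodes over 0.5% had 0.95% and 2.06% Malat1 and the muscle shares 5.46% and 4.89%; the other 46 had at most 0.447%, and 11 had none. Summed, Malat1 stood at 1077 CPM in the core and 15598 in the others, Xist at 82.3 and 1441, and Neat1 at 54.9 and 788. Thinned to 1000 UMIs per barcode, Malat1 was detected in 21 of 48 core barcodes (43.8%, 29.5 to 58.8) and in 98.1% of the others. Xist was detected in 8.33% and 67.3%, and Neat1 in 8.33% and 46.2%; before thinning Xist had been seen in 16.7% and 93.4%. Depth and the mt- share (median 3.43% in the core, 5.95% in the others) differ between these sets too, and their part was not tested. The labels name both sexes, but Y-linked RNA was almost absent from the retained barcodes of this library. UMIs of the Y-linked genes Ddx3y, Eif2s3y, Kdm5d and Uty were 0 in muscle barcodes and 4 in all others retained, 93.4% of which held Xist.

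**Figure D5:**
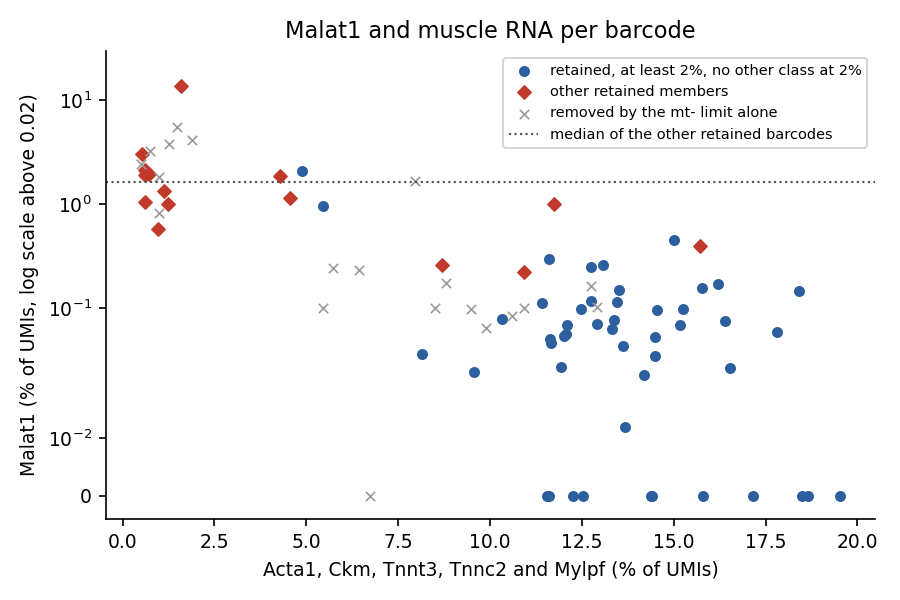
Malat1 (y axis, % of UMIs, log scale above 0.02) against the share of the 5 muscle genes (x axis, % of UMIs, linear) for the 63 muscle barcodes and the 20 removed by the mt- limit. Most barcodes above 6% muscle RNA lie well under the median of the other retained barcodes (dotted line, 1.62%), and low-share barcodes lie around it.

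The main regulators of muscle stem cells were at or near 0. The satellite cell regulators Pax7 and Myf5 had 0 UMIs in the 63 barcodes; in the whole library they were seen in 8 and 7 of 10456 barcodes, 1 with Pax7 being a muscle barcode removed by the mt- limit. Myod1 was detected in 4 muscle barcodes and Myog, a factor of differentiation, in 2. Myf6, the member of that family kept in adult fibres, was detected in 18 muscle barcodes and in 32 of the whole library, and Mef2c in 45 muscle barcodes. Of the 16 satellite cell genes 8 were at 0, but the list summed to 3374 CPM against 846 in the other retained barcodes, of which desmin (Des), also a fibre protein, made up 3049. Of 19 genes of regenerating or immature fibres 11 were at 0, and the list summed to 1463 CPM against 288, of which H19 made up 1205. Of 15 neuromuscular junction genes 6 were at 0, among them the acetylcholine receptor subunits Chrna1, Chrnd and Chrne, and the muscle sodium channel Scn4a had 1 UMI. Myostatin (Mstn), the secreted brake on muscle growth, had 10 UMIs in 8 barcodes and 1 UMI in all other retained barcodes. Dpp4, the target of sitagliptin, had 1 UMI in muscle barcodes (3.73 CPM, 0.0945 to 20.8), beside 17.0 CPM in the others.

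The 20 barcodes that only the mt- limit removed were 24.1% of the 83 that met the rest of the rule (15.4 to 34.7), while 35.4% of all barcodes of sufficient depth lay over that limit. They held 53725 UMIs; 13 had at least 2% muscle RNA and 7 less. Without mt- genes in the total, 216 of 2022 genes (10.7%) were at least 2-fold higher in the removed barcodes and 247 (12.2%) lower, but the interval of the ratio left out 1 for only 130 and 60. All 11 immediate early genes compared were higher in the removed barcodes, Jun 7.46-fold (5.03 to 11.1), Egr1 6.19-fold and Fos 5.42-fold. With at least 2% muscle RNA on both sides fewer barcodes entered. Only 4 of the 16 immediate early genes then passed the filter and 0 of those were 2-fold higher. Over all genes, 87 of 1239 compared were higher and 213 lower, so 0 of 4 says little. Jun then stood 1.46-fold higher, Junb 1.87-fold and Fos at a ratio of 0.971, while Ier2 and Fosb, which did not pass the filter, stood 3.49-fold and 4.37-fold higher. The 16 genes summed to 1524 CPM in the removed barcodes and 973 in the retained ones, from 33 and 184 UMIs. Of 13 thick filament genes 0 were higher in the removed barcodes and 1 lower (list median log2 ratio -0.50), and of 17 fast-list genes 1 was higher and 1 lower (-0.61). These medians cover whole lists, while the median of -0.08 over all genes covers only those compared. With at least 2% muscle RNA on both sides 2 fast-list genes were higher in the removed barcodes and 0 lower. The fast list then summed to 95718 CPM in removed and 111368 in retained barcodes, against 52635 and 84538 without that limit. The thick filament list summed to 34092.5 and 38321 CPM, against 19479 and 29140.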

How the data were processed

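One skin library per treatment was analysed, grouped by the treatment labels. The values are raw UMI counts per gene and barcode, deposited by the authors as sparse matrices of 31053 genes. They were made with Cell Ranger 3.1.0 on mm10, per the submitters' processing notes. The sources used here do not say which transcript end was read or how cells were called. Cells of 1 library are no replicates, so no p-value was computed. UMIs were summed over barcodes and given as CPM with exact Poisson intervals, shares with Clopper-Pearson and ratios with conditional binomial 95% intervals (Python 3.11.15, numpy 2.4.6, scipy 1.17.1, pandas 2.3.3, matplotlib 3.10.9). A count of 0 was set to 3 counts for limits. List medians used a pseudocount of 1 CPM and every gene of a list, also those not compared. Medians over all genes used only genes compared. The comparisons of muscle with other retained barcodes and of removed with retained muscle barcodes were tested on simulated data. The comparison of the Myh2 and Myh4 groups was not. The members and gene lists were chosen with earlier results of these data known. The core set, the Myh2 and Myh4 groups and the macrophage and keratinocyte sets were chosen after the values were seen. Macrophages had C1qa, C1qb and C1qc all detected at 0.3% together, and keratinocyte barcodes had 2% marker RNA, fibroblasts with 1% collagen left out. Genes named were those of the lists, the 15 most abundant, the 15 of highest ratio, up to 10 each way against the removed barcodes, and up to 15 each way between the myosin groups. These rankings left out mt-, ribosomal protein, haemoglobin, immunoglobulin, T cell receptor and predicted genes. Promoter windows are RefSeq's (GRCm38.p6), positions and transcript ends those of GENCODE vM21. Aldoa is listed under 2 gene IDs, which were summed.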

Additional observations from a re-analysis of the deposited data

How the results depend on the processing

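No paired analysis was possible because there is 1 library per treatment. The count of 63 muscle barcodes fell to 32 at 1000 genes and 2000 UMIs; 9 other settings left it within 1.5 times. The Myh4 share stayed within its interval under all 7 settings. The Myh1 share became 39.5% without barcodes holding another class at 2%, and the Myh2 share 11.7% at 5% muscle RNA, 8.64% thinned to 1000 UMIs, 11.9% without other classes and 10.5% as a mean over barcodes. Between the myosin groups the counts higher and lower with Myh2 became 107 and 159 over all muscle barcodes and 17 and 24 after thinning, and 95 were higher with other classes kept; these alternatives, and leaving out a gene's richest barcode, were chosen after seeing the data. For the 24 genes named there at 2-fold, most recomputed ratios were again past 2-fold in the same direction. The setting of 20 CPM changes only the counts of genes and leaves each ratio as it was. S100a10 stood at a ratio of only 0.557 with other classes kept. Against other retained barcodes the genes lower in muscle became 1769 at 2% muscle RNA, 2359 at 20 CPM, 7058 without a CPM minimum and 1745 without mt-, ribosomal and haemoglobin genes in the total, and those higher 1571 without a minimum. In removed barcodes the higher genes became 87 at 2% muscle RNA, 74 at 5%, 339 as means over barcodes, 28 after thinning and 105 without other classes. The lower ones became 144 at 5% and 61 after thinning. Fos reversed to 0.971 at 2%. The 5 muscle genes outside muscle barcodes of the PBS-labelled library became 84.0 CPM as a mean over barcodes, 54.2 at the stricter depth and 135 over all barcodes outside the rule. Causes of these shifts were not tested. Low UMI totals limit genes under about 20 UMIs.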

Other observations

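Genes of protein breakdown and stress compared with other cells in different ways. Trim63, the ubiquitin ligase MuRF1, had 33 UMIs in 20 muscle barcodes (123 CPM against 0.123 in the other retained barcodes), and Fbxo32, the ligase atrogin-1, 25 UMIs in 13 (93.3 against 61.6 CPM). Of 12 glucocorticoid-responsive genes all were detected, and of 9 compared 1 was at least 2-fold higher in muscle and 1 lower. The immediate early genes were lower: 11 of 15 compared were at least 2-fold lower in muscle and 0 higher. Among heat shock genes the small ones of muscle were higher, Hspb6 at 2679 and Hspb7 at 1235 CPM, while Hsp90aa1 and Hspa1a were lower. Their groups are those of the comparison with other retained barcodes, in which 15.9% of all genes were higher and 30.4% lower.

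Shallow barcodes held further muscle RNA. Below the depth limits 70 barcodes met the muscle and collagen parts of the rule, 30 of them within the mt- limit. They had a median of 723 UMIs and a median muscle share of 7.52%. The sitagliptin-labelled library held 0 such barcodes. Its shallowest barcode had 1138 UMIs, above the UMI limit, while the shallowest of the PBS-labelled library had 500. Barcodes at the median depth of the 70 were thus absent there, so this count of 0 does not compare the libraries.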
